A study of Rattus norvegicus with 20 samples.

Results

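The samples described here are 3 microarrays, of 20 in the series. Each compared 2 iliac arteries of young rats with each other 30 min after balloon injury of the right iliac artery. These are the 3 arrays titled as young versus young at 30 min. Each array is a 2-colour Agilent Whole Rat Genome array, on which RNA from one artery carried the dye Cy3 and RNA from another the dye Cy5. The value of a probe is the log2 ratio of the 2 arteries, so that 1 stands for a 2-fold difference and 0 for equal signal. The labels give both channels of each array the same description, namely a young rat of 3 months at 30 min after injury. Other parts of the study give other ages for the young rats. The remaining arrays of the series compared old (22 months) with old arteries at 30 min (3 arrays) or old with young arteries. Old Fisher F344 rats came from the colony of the National Institute on Aging and young rats from Harlan. The methods name that strain for the old rats only. The animals behind each sample were not named in the sources used here, and p-values therefore measure the spread between arrays only.

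The direction of the ratio was likely and not settled. Since both channels share one label, the labels do not say which artery was the injured one. The legend of a supplementary list of the study names this comparison as young injured versus young control, and values above 0 are taken here, on that basis, as higher in the injured artery. The control artery was not described further in the sources used here. Neither source said whether a ratio was formed as channel 1 over channel 2 or as Cy5 over Cy3. Channel 1 held Cy5 on replicates 1 and 3 and Cy3 on replicate 2, so each comparison was also computed with the sign of replicate 2 turned. Spot intensities were not analysed here, so the level of a marker gene in the artery could not be checked, only its ratio.

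Balloon injury strips the endothelium, stretches the muscular media and exposes collagen and von Willebrand factor to flowing blood. Within minutes platelets adhere to that surface, spread and release their granules, and red cells and leukocytes are caught in the deposit. Platelets have no nucleus and carry messenger RNA that they inherited from megakaryocytes, and circulating red cells hold globin RNA in the same way. Wall cells answer stretch and cell loss with the immediate early genes, which are transcribed within minutes and need no new protein. In RNA from a whole artery, as here, fewer cells of a type and less RNA per cell cannot be told apart.

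No probe passed an adjusted p under 0.05 (limma, Benjamini-Hochberg over 41010 probes, 0% of probes), and the smallest adjusted p was 0.236. At an unadjusted p under 0.05 there were 3118 probes (2.83% of all probes positive and 4.78% negative). A one-sample t-test of the 3 ratios against 0, on the same values, gave 1751. The study's methods name a one-way analysis of variance. The thresholds of the study's methods require a 2-fold change as well. At these, limma gave 153 positive probes (0.373% of all probes) and 237 negative ones (0.578%). Of these, 101 positive and 87 negative probes carried a gene symbol. The t-test with the 2-fold change gave 29 positive and 73 negative probes. A supplementary legend of the study gives 1751 transcripts for this comparison with the 2-fold change. That is the number the t-test gave here with no fold threshold. Averaged by gene, 0 of 16421 genes passed an adjusted p under 0.05 (0% of genes, smallest adjusted p 0.0925), with 1114 at an unadjusted p under 0.05. In this gene fit, 3.38% of all genes were positive and 3.40% negative at an unadjusted p under 0.05. The mean was above 0 for 55.2% of all genes and below 0 for 44.8%. On all 3 arrays together, 15.3% of genes were above 0 and 12.4% below, and the median gene mean was 0.03. Below, log2 ratios are given for replicates 1, 2 and 3 in that order, with the mean ± the standard error of limma over the 3 arrays, and counts of members past a threshold are at an unadjusted p under 0.05 in the gene fit unless stated.

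The 3 arrays did not resemble each other equally. Across all probes, replicates 1 and 3 correlated at a Pearson r of 0.32, replicates 2 and 3 at 0.10 and replicates 1 and 2 at -0.09. These correlations are across probes of 2 arrays and are given as a description. Among the 15 pairs formed by these arrays and the 3 old versus old arrays, the 6 pairs with the same dye in channel 1 had an r of 0.17 to 0.53, and the 9 pairs with opposite dyes -0.20 to 0.22. Replicate 3 was the widest array, with an SD over probes of 0.60 against 0.41 and 0.40, and 9.20% of its probes were at least 2-fold from 0 against 2.70% and 2.48%. On each array 60.7 to 64.0% of probes carried a value identical to that of another probe, and 50.6% did so on all 3 arrays.

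Genes of platelets gave the largest positive values. Of 12 platelet genes listed, 9 were measured and 9 of these 9 had a mean above 0, with a median of 1.56 against 0.03 over all genes. At an unadjusted p under 0.05, 7 of 9 were positive and 0 negative. Leaving out replicate 1, 2 or 3 left 7 positive each time. In the gene fit without replicate 1, Clec1b, Pf4, Ppbp, Gp1bb, Gp5 and Treml1 passed an adjusted p under 0.05 (limma). Clec1b, Pf4, Ppbp and Gp1bb also did with the arrays brought to the same spread. No gene did without replicate 2 or without replicate 3. In the probe fit, no probe did without replicate 1 or with the same spread.

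Clec1b, which encodes the podoplanin receptor CLEC-2 of platelets, had log2 ratios of 2.07, 2.95 and 3.71. That is a mean of 2.91 ± 0.29, or 7.52-fold (adjusted p = 0.0925, limma), the largest positive mean of any named probe. Pf4, the platelet factor 4 chemokine of alpha granules, measured 1.69, 2.07 and 2.88, a mean of 2.21 ± 0.24 (adjusted p = 0.0925). Both genes were above 0 on every array, lowest on replicate 1 and highest on replicate 3. Ppbp, the precursor of beta-thromboglobulin and another granule protein, measured 1.56, 1.69 and 2.41 (mean 1.89 ± 0.21, adjusted p = 0.0925). Treml1, a receptor stored in the same granules, had 2 probes, with means of 1.94 and 0.88, both of the same sign.

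The receptor for von Willebrand factor on platelets is built from 4 gene products, and these split. Gp1bb measured 1.47, 2.24 and 2.89 (mean 2.20 ± 0.27, adjusted p = 0.0971). Gp5 measured 0.95, 1.66 and 2.06 (mean 1.56 ± 0.23), and Gp9 measured 0.52, 0.69 and 1.47 (mean 0.89). These subunits were positive on all arrays in the same order of replicates. Gp1ba measured -0.18, 0.52 and 0.02 (mean 0.12, adjusted p = 0.92), and the arrays lay on both sides of 0. Itgb3, the beta subunit of the fibrinogen receptor, also had a mean near 0, at 0.06. The plot of platelet and erythroid genes by array shows this split.

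**Figure D1:**
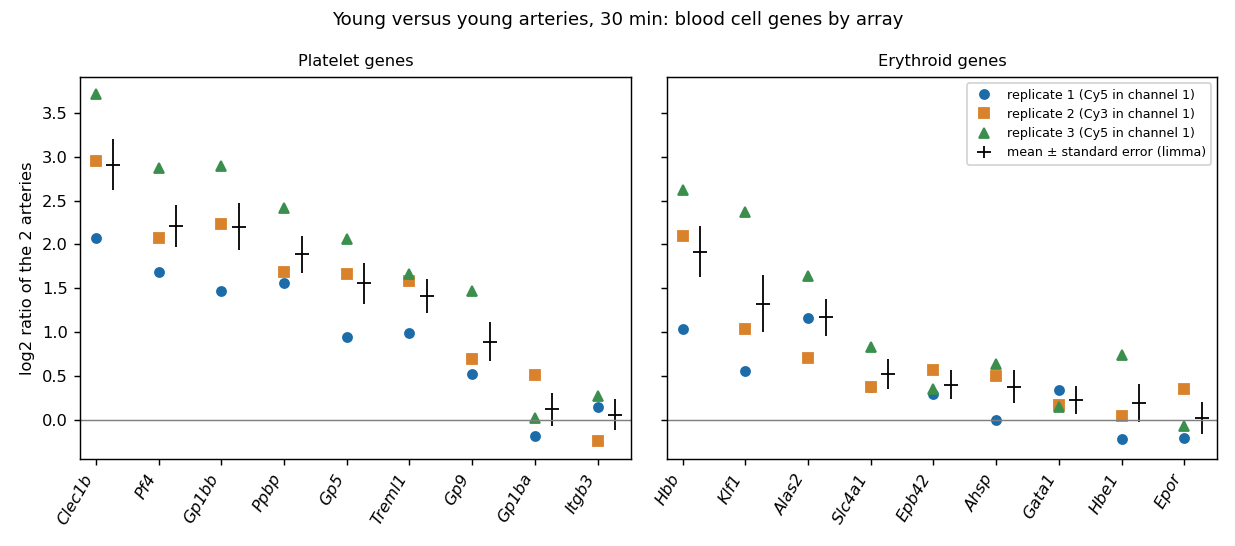
Log2 ratio of the 2 arteries (vertical axis) for each platelet and erythroid gene measured, with one symbol per array and the mean ± standard error beside it. The first 7 platelet genes lie above 0 on all 3 arrays with replicate 1 lowest, while Gp1ba and Itgb3 straddle 0.

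Because these genes were positive in the same order of arrays, the 250 bases before the RefSeq start (rat build GRCr8) of the 3 with the smallest p and a table entry are shown, namely Clec1b, Ppbp and Gp1bb. Megakaryocyte genes are known for binding of GATA and ETS family factors close to their starts. Capitals mark matches on either strand to a GATA motif (the letters GATA with A or T before them and A or G after them) or to an ETS motif (the letters GGAAG with A or C before them). Clec1b lies at chr4:164533859-164534108 and Gp1bb at chr11:95882311-95882560 on the plus strand, and Ppbp at chr14:17587300-17587549 on the minus strand.
Clec1b: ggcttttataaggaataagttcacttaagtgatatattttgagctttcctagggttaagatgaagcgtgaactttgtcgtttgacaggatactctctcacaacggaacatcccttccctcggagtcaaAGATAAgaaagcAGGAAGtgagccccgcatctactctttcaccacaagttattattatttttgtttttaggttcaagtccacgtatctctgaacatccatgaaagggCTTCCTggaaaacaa
Ppbp: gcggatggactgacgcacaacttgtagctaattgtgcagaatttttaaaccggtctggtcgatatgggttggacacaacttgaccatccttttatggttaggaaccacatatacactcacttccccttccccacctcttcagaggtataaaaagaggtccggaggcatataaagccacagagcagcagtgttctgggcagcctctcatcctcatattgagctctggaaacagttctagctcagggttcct
Gp1bb: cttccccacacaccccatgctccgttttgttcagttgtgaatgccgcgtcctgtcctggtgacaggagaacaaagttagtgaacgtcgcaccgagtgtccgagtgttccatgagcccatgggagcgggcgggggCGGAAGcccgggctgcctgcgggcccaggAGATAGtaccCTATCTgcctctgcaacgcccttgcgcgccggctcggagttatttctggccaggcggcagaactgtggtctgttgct
In Clec1b the GATA match began 122 bases before the start and the ETS matches 110 and 15 bases before it. In Gp1bb, 2 GATA matches began 87 and 77 bases before the start, next to an ETS match at 116. Ppbp held no match to either motif. Both motifs were found in 4 of the 7 platelet promoters in the table (Clec1b, Gp1bb, Gp5 and Gp1ba), against 9.81% of all 33469 promoters of the same length. They were also found together in 5 of 15 promoters of endothelial genes and 1 of 7 of erythroid genes, so the pair is not particular to platelet genes. A GATA match alone is common, at 27.0% of all promoters, and an ETS match at 39.4%. Gp1ba held 3 GATA and 2 ETS matches and had a mean near 0, whereas Ppbp and Treml1 held neither motif and were positive on all arrays. A match is a description of letters and not a binding site.

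Erythroid genes followed. All of the 9 measured (of 13 listed) had a mean above 0, with a median of 0.40, and 5 were positive at an unadjusted p under 0.05. Hbb, a beta globin, measured 1.04, 2.10 and 2.62 (mean 1.92 ± 0.29, adjusted p = 0.19). Alas2, which catalyses the first step of haem synthesis in red cells, measured 1.16, 0.70 and 1.64 (mean 1.17 ± 0.21). Both were above 0 on every array, and Hbb showed the same order of replicates as the platelet genes. Klf1, an erythroid transcription factor, had a mean of 1.32, and Slc4a1, the anion exchanger band 3, a mean of 0.52. Gata1 (0.22) and Epor (0.02) lay near 0. Without replicate 3 the count was 3, and without replicate 1 or 2 it was 4.

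Among leukocyte lists the values were smaller. Of 14 neutrophil genes measured, 12 had a mean above 0 and 4 were positive at an unadjusted p under 0.05. S100a9, a calcium-binding protein abundant in neutrophils, measured 1.97, 1.78 and 0.76 (mean 1.50 ± 0.25, adjusted p = 0.244). Here replicate 3 was the lowest array, the reverse of the platelet genes. Camp (0.69), an antimicrobial peptide, Ncf4 (0.64), a subunit of the NADPH oxidase, and S100a8 (0.57) completed the 4. The count was 2 without replicate 1, 3 without replicate 2 and 5 without replicate 3. The enzymes of primary granules lay near 0, with Mpo at 0.15 and Elane at 0.20. Macrophage genes had 2 positive of 15 (Marco 0.69, Cd74 0.67) and lymphocyte genes 3 of 17 (Cd2 0.72, Nkg7 0.76, Cd5 0.47). For lymphocyte genes the count was 5 without replicate 1, 1 without replicate 2 and 3 without replicate 3, and for macrophage genes 1, 2 and 3.

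The interferon and complement lists were mostly above 0. Among 18 interferon response genes, 13 were above 0 and 5 were positive at an unadjusted p under 0.05. Isg15, a ubiquitin-like protein, measured 0.53, 1.30 and 1.01 (mean 0.95 ± 0.20, adjusted p = 0.364). Irf7, a transcription factor of the interferon response, measured 0.65, 0.83 and 1.80 (mean 1.09 ± 0.24). Both were above 0 on all arrays, as were the other 3, Oas1a (0.64), Rsad2 (0.61) and Ifi27 (0.82). Of 19 genes of complement and antigen presentation, 17 were above 0 and 4 positive at that threshold, namely C3 (0.76), the central complement component, Cd74 (0.67), the invariant chain, RT1-Bb (0.44) and RT1-Da (0.52). That count was 2 without replicate 1 and 3 without either of the others.

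Cytokines and chemokines divided the arrays. Of 26 measured, 18 had a mean above 0, 4 were positive and 1 was negative at an unadjusted p under 0.05. Ccl5, a chemokine of T cells and platelets, measured 0.98, 1.84 and 0.28 (mean 1.03 ± 0.29, adjusted p = 0.528), and Cxcl10, an interferon-induced chemokine, measured 0.84, 0.31 and 0.52 (mean 0.56). Both were positive on all arrays. Il11 reached its mean of 1.25 through replicate 3 alone, with values of 0.55, 0.34 and 2.87. Il1b, the fever cytokine interleukin 1 beta, measured 1.05, 0.69 and -0.77. Ccl2, the monocyte chemokine, measured 1.78, -0.09 and -0.60, and Il6 measured 1.34, 0.51 and -0.53. All 3 were highest on replicate 1 and below 0 on replicate 3. Without replicate 3 the number positive was 8, against 3 without replicate 1 and 4 without replicate 2.

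The immediate early list centred on 0, and its clearest members were negative. Of 30 genes measured, 14 had a mean above 0, 0 were positive and 3 negative at an unadjusted p under 0.05. The 3 were the whole Nr4a family of orphan nuclear receptors. Nr4a1 measured -0.86, -1.002 and -1.80 (mean -1.22 ± 0.22, adjusted p = 0.264). Nr4a2 measured -0.86, -1.27 and -1.003 (mean -1.05 ± 0.17, adjusted p = 0.213), and Nr4a3 measured -0.42, -1.07 and -1.90 (mean -1.13 ± 0.28, adjusted p = 0.502). Every array was below 0 for all 3 genes. Leaving out one array left 3 to 5 negative and 1 to 2 positive members, with 5 negative without replicate 2.

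Nr4a genes are known as fast targets of cyclic AMP signalling through the CRE, and the 250 bases before the start of Nr4a1 (chr7:134259888-134260137, plus strand, GRCr8) are shown with the core letters of the CRE, TGACG, on either strand in capitals.
Nr4a1: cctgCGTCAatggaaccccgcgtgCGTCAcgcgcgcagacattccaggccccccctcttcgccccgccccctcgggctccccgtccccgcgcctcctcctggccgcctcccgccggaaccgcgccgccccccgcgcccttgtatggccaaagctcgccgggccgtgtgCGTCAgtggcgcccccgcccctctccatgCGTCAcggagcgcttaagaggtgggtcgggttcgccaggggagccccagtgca
There were 4 matches, at 246, 226, 82 and 53 bases before the start. These letters were found in 18.2% of all promoters and in 13 of the 19 immediate early promoters in the table.

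The other 27 genes of the list split into 14 with a mean above 0 and 13 below, and none passed an unadjusted p under 0.05. Arc, a synaptic protein, was the only one of them below 0 on all 3 arrays, at -0.50, -0.02 and -0.63. Egr2, a zinc finger factor, measured 0.29, -0.97 and -1.08. Fos measured -0.01, 0.23 and 1.74, and Junb 0.23, 0.15 and 1.99, so that both means (0.65 and 0.79) came mainly from replicate 3. Egr1 measured 0.43, -0.92 and -0.02, Atf3 0.43, -0.43 and -0.37, and Jun -0.73, 0.28 and 0.88. For these 3, as for Egr2, the arrays lay on both sides of 0. Among 22 rapid feedback regulators, 2 were positive (Trib1 0.58, Socs1 0.55) and 2 negative. Errfi1, an inhibitor of the EGF receptor, measured -0.72, -0.66 and -3.66, and Sik1, a kinase induced by cyclic AMP, measured -0.57, -0.32 and -1.36. Both were most negative on replicate 3, and without that array the list had 1 positive and 1 negative member, against 1 and 3 without replicate 2.

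The lowest mean of the endothelial list was below those of the smooth muscle contractile, ion channel and matrix lists. Of 24 measured, 8 had a mean above 0, the median was -0.20, and 6 were negative and 1 positive at an unadjusted p under 0.05. Gja5, the gap junction protein connexin 40 of arterial endothelium, measured -0.95, -1.88 and -1.80 (mean -1.54 ± 0.22, 2.92-fold lower, adjusted p = 0.188). Edn1, the vasoconstrictor endothelin 1, measured -0.97, -1.56 and -1.04 (mean -1.19 ± 0.18, 2.28-fold lower, adjusted p = 0.206). Both were below 0 on every array, with the least negative value on replicate 1. Without that array Gja5 passed an adjusted p under 0.05 in the gene fit (limma), whereas no gene did without replicate 2 or 3. The study named Gja5 from these samples, so its value here is not independent evidence.

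The other 4 negative members were Erg (-0.67), an ETS factor of endothelium, Thbd (-0.78), the anticoagulant receptor thrombomodulin, Cldn5 (-0.51), a tight junction protein, and Gja4 (-0.57), connexin 37. Procr, the protein C receptor, was the positive member at 0.41. The pan-endothelial markers did not follow. Pecam1 measured -0.12, 0.06 and 0.93, Cdh5, the endothelial cadherin, -0.41, 0.40 and -0.21, and Kdr, a VEGF receptor, -0.06, -0.09 and 0.01. Vwf, shared with platelets, had a mean of -0.26. Nos3, the endothelial nitric oxide synthase, measured 0.19, -1.36 and -0.26. The negative count was 7, 6 and 4 without replicates 1, 2 and 3, and the positive count 0 each time.

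**Figure D2:**
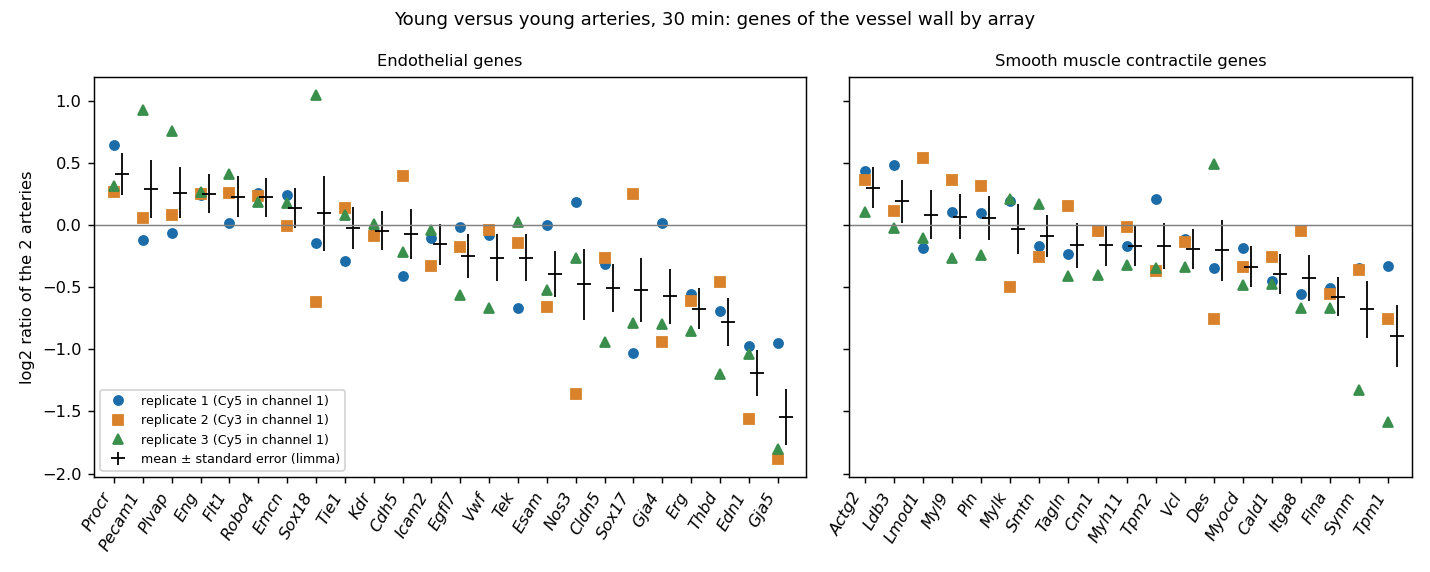
Log2 ratio of the 2 arteries (vertical axis) for each endothelial and smooth muscle contractile gene measured, one symbol per array, with the mean ± standard error. Gja5, Edn1, Thbd and Erg lie below 0 on all 3 arrays, and most other genes lie within 0.5 of 0 on average.

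Smooth muscle contractile genes had less extreme means, the lowest at -0.89 against -1.54 among endothelial genes. Their array medians lay lower than the endothelial ones, at -0.17, -0.14 and -0.34 against -0.09, -0.12 and -0.13. Of 19 measured, 5 had a mean above 0, the median was -0.17, and 4 were negative at an unadjusted p under 0.05. Tpm1, a tropomyosin, measured -0.33, -0.75 and -1.59 (mean -0.89 ± 0.25, adjusted p = 0.528). Flna, the actin crosslinker filamin A, measured -0.51, -0.56 and -0.66 (mean -0.58 ± 0.16, adjusted p = 0.528), nearly the same on each array. Synm (-0.68), an intermediate filament protein, and Cald1 (-0.39), caldesmon, were the other 2. The defining markers were nearer 0, with gene means of -0.17 for Myh11, -0.16 for Tagln, -0.16 for Cnn1 and 0.07 for Myl9. The value of Myh11, smooth muscle myosin, averages 2 probes of opposite sign. One measured -0.45, -0.26 and -0.95 (mean -0.56, unadjusted p = 0.0286, adjusted p = 0.609, limma), about as low as Flna, and the other 0.12, 0.24 and 0.31 (mean 0.22). Leaving out one array left 3 to 4 negative members.

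Ion channels of smooth muscle had 5 negative members and 1 positive of 26, the calcium channel gene Trpc1 measuring -0.53, -0.36 and -2.51. Without replicate 3 none of the 26 passed that threshold, and without either of the others 3 were negative. Pdgfrb, the PDGF receptor of mural cells, measured -0.57, -0.99 and -1.14 (mean -0.90 ± 0.18, adjusted p = 0.345). The vasoactive list held Adra1a, an adrenergic receptor, at 0.26, 0.93 and 1.17 (mean 0.79). Both were of one sign on all arrays. The replicate 2 value of Adra1a (0.93) was identical to that of a Bcan and a Zbtb33 probe.

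Matrix genes were mostly below 0. Of 26 collagens and other matrix genes, 4 had a mean above 0, the median was -0.19, and 8 were negative and 0 positive at an unadjusted p under 0.05. Fn1, fibronectin, measured -0.65, -0.86 and -1.13 (mean -0.88 ± 0.17, adjusted p = 0.339). Lox, the collagen crosslinking enzyme, measured -1.10, -0.43 and -0.86 (mean -0.79 ± 0.19). Bgn, biglycan, measured -0.48, -0.77 and -0.51 (mean -0.59 ± 0.16), and Vcan, versican, -0.41, -0.42 and -1.15 (mean -0.66 ± 0.20). These 4 genes were below 0 on every array. The count was 4 without replicate 1, 7 without replicate 2 and 5 without replicate 3. Fibroblast markers had 0 of 16 past the threshold and a median of 0.08.

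Skeletal muscle genes, which mark tissue that adjoins the iliac artery, varied by array. Of 19 measured, 8 were negative and 1 positive at an unadjusted p under 0.05, and the list median was 0.19 on replicate 1, -1.24 on replicate 2 and -1.14 on replicate 3. Ckm, the muscle creatine kinase, measured 0.02, -2.63 and -1.92, and Pvalb, the calcium buffer parvalbumin, 0.66, -2.73 and -2.64. Actn3, an actinin of fast fibres, measured 0.39, -2.73 and -2.46. Replicate 1 thus stood apart from the other 2 arrays. Without replicate 1 the negative count was 13, and Actn3, Ckm, Pvalb, Tnnc2, Tnnt3 and Myh4 passed an adjusted p under 0.05 (limma). Without replicate 2 the count was 1, and without replicate 3 it was 3. No gene passed an adjusted p under 0.05 in either of these settings. On the 3 old versus old arrays the list medians were -1.30, -0.19 and 0.46. Neb and Dhrs7c, among the lowest probes below, are also genes of striated muscle, and the part of adjoining muscle in their values was not tested.

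**Figure D3:**
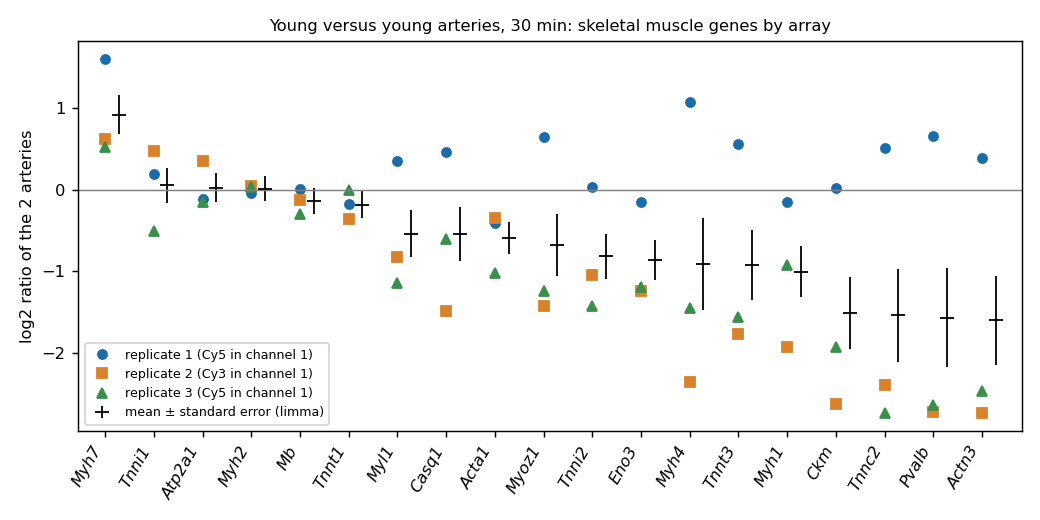
Log2 ratio of the 2 arteries (vertical axis) for each skeletal muscle gene measured, one symbol per array, with the mean ± standard error. Replicate 1 lies at or above 0 for most genes, whereas replicates 2 and 3 reach -2.73 and -2.74.

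Across probes with a symbol, the 15 highest among those at least 2-fold from 0 with one sign on all arrays and an unadjusted p under 0.01 were Clec1b, Ceacam4, Pf4, Gp1bb, Treml1, Hbb, Ppbp, Ret, Rec114, Npy, Hbb-b1, Nfe2, Dydc1, Gp5 and F2rl2. Outside the platelet list and the globin genes, Nfe2, a transcription factor of megakaryocytes and red cells, measured 0.68, 1.78 and 2.37 (mean 1.61 ± 0.31, adjusted p = 0.421). Npy, which encodes neuropeptide Y, measured 1.52, 1.34 and 2.18 (mean 1.68 ± 0.22, adjusted p = 0.236), and its source cell was not tested. F2rl2, a thrombin receptor of the protease-activated family, measured 0.88, 2.32 and 1.40 (mean 1.53 ± 0.28). All 3 were above 0 on every array.

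Some of these symbols rested on 1 of several probes. Ret, a receptor tyrosine kinase for GDNF ligands, measured 1.05, 2.15 and 2.05 on the probe named, while its other probes had means of 0.01, -0.01 and 0.27. Ceacam4 had means of 2.22 and 0.61 on its 2 probes, which share a sign. Hbb-b1, a second beta globin, measured 1.63, 0.23 and 3.14. The globin genes are near-identical copies, so their probes may share signal.

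The 15 lowest probes were Dmp1, Gnat2, Cyp26b1, Gpsm2, Ptprr, Nkx6-1, Uaca, Neb, Notch1, Gja5, Dhrs7c, Prodh, Mageb18, 6330403K07Rikl and Asb2. Dmp1, a phosphoprotein of bone and dentin matrix, measured -1.37, -1.97 and -3.08 (mean -2.14 ± 0.32, adjusted p = 0.322). Cyp26b1, which degrades retinoic acid, measured -1.39, -2.30 and -1.65 (mean -1.78 ± 0.22, adjusted p = 0.236). Notch1, a receptor of arterial endothelium and mural cells, measured -1.91, -0.83 and -1.94 (mean -1.56 ± 0.26, adjusted p = 0.327). Each of these was below 0 on every array. Gpsm2, which orients the mitotic spindle, measured -1.39, -1.78 and -1.98. Gnat2, known as the transducin subunit of cones, measured -2.13, -1.51 and -2.09 on one probe and had a mean of 0.19 on another. Neb, Prodh, Ptprr and Uaca likewise had other probes with means between -0.26 and 0.16. Of these 15 probes, 13 carried no value shared with another probe on any array, as did 13 of the 15 highest, against 27.2% of all probes.

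The genes that the study named in its text were mostly below 0. Of 13 genes, 3 had a mean above 0 and 10 below, against 44.8% of all genes below, and 3 were negative (Gja5, Vcam1 and Bcl2) and 1 positive (Ncf4) at an unadjusted p under 0.05. Apart from Myh11, which the study gave as background, these genes were named from results that included its own arrays. The counts are therefore not independent evidence. The study lists Cadps2, Rbm39, Ncf4 and Gja5 among the genes that passed its thresholds in this comparison. Of these, only Gja5 was at least 2-fold from 0 here. Ncf4 measured 0.86, 0.44 and 0.64 (1.56-fold). Rbm39 had a mean of -0.24 (1.18-fold lower, unadjusted p = 0.21, limma), with values shared with other probes on all 3 arrays. The 3 Cadps2 probes had means of -0.30, -0.36 and 0.10. Vcam1, a leukocyte adhesion molecule, measured -0.30, -0.76 and -1.61 (mean -0.89, adjusted p = 0.564, limma). Bcl2, which blocks apoptosis, had probe means of -0.87 and -0.32. The Bcl2 probe at -0.87 carried values identical to those of other probes on all 3 arrays. Myl9, the regulatory light chain of smooth muscle myosin, measured 0.04, 0.37 and -0.70 on one probe and 0.17, 0.35 and 0.18 on the other. The arrays for Myl9 lay on both sides of 0 on one probe and were above 0 on the other. Col1a1 had means of -0.26, -0.38 and 0.09 on its 3 probes, and the probes of Vegfa 0.00 and 0.26.

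Large assemblies of every cell had medians of 0.00 to 0.25. Cytosolic ribosomal proteins had 78 of 98 means above 0 and a median of 0.25, with array medians of 0.01, 0.28 and 0.40. At an unadjusted p under 0.05, 12 were positive and 1 negative, but 0 and 0 without replicate 3. Rps14, a protein of the small subunit, measured 0.22, 0.44 and 2.15. Nuclear genes of oxidative phosphorylation had 57 of 77 above 0 and a median of 0.12, with array medians of 0.06, 0.08 and 0.22. Proteasome subunits had 20 of 39 above 0 and a median of 0.00, with array medians of -0.04, 0.08 and 0.04. Replicate 3 was thus the highest array for ribosomal and oxidative phosphorylation genes, and replicate 2 for the proteasome. Of 15 circadian clock genes 14 had a mean below 0, none past the threshold, and heat shock (1 of 21), NF-kB pathway (0 of 18), hypoxia (0 of 22) and oxidative stress (0 of 21) genes had at most 1. Adipocyte markers had 17 of 18 above 0 with 1 past the threshold, Fabp4, a fatty acid binding protein, at 0.65, and with 3 past it without replicate 2 or without replicate 3.

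**Figure D4:**
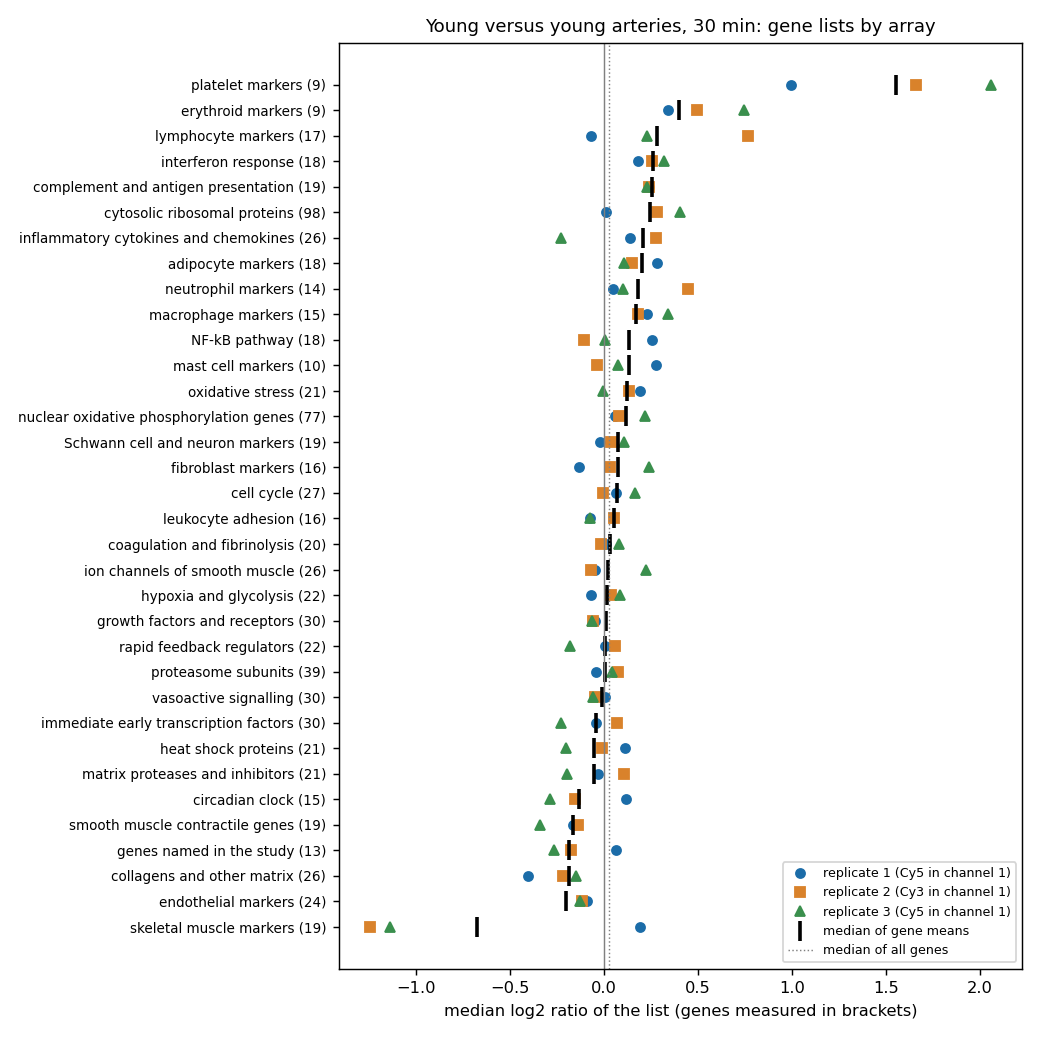
Median log2 ratio (horizontal axis) of 34 gene lists on each array, with the median of the gene means as a bar and the median of all genes (0.03) as a dotted line. Platelet genes have the highest medians (0.99, 1.66 and 2.06) and skeletal muscle genes the widest gap between arrays.

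When the sign of replicate 2 was turned, most of these values shrank toward 0. Most of them, and the 390 probes counted below, were picked for a small p with the signs as deposited. Their shrinkage follows in part from that choice. Over all probes, 3446 then passed an unadjusted p under 0.05 (limma) against 3118 as deposited, and 1387 genes did against 1114. The platelet median became 0.45 and the skeletal muscle median 0.06, and 0 of 9 platelet genes passed an unadjusted p under 0.05. At the thresholds of the study's methods, 94 probes were then positive and 117 negative (0.229% and 0.285% of all probes), and 17 of the 390 probes kept their call. With the signs as deposited, the 7 leading platelet genes, the Nr4a genes, Gja5 and Edn1 had one sign on all 3 arrays. Replicate 2 carried the dyes the other way round. Genes singled out for a small p over these 3 arrays tend to have one sign on all of them, so this is a description only. If the ratios stand as Cy5 over Cy3 and the injured artery had the same dye each time, dye and injury cannot be told apart.

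The same artery comparison in old rats (22 months, 3 arrays) allowed each value to be set against another age. On the old arrays channel 1 held Cy3 on replicates 1 and 3 and Cy5 on replicate 2, the reverse of the young arrays. A difference between the ages is therefore also in part a difference in dye layout. No probe differed between the ages at an adjusted p under 0.05 (limma, 0% of 41010 probes, smallest adjusted p 1.00), 969 did at an unadjusted p under 0.05 (1.22% of probes higher and 1.14% lower in young), and 311 met the thresholds of the study's methods (0.446% of probes higher in young and 0.312% lower). Clec1b measured 1.30, 1.99 and 3.62 in old arteries, a difference of 0.61 (young minus old), and Gja5 measured -2.72, -1.55 and -2.59, a difference of 0.74. The ranges of the 2 ages overlapped for both genes. Of the 15 highest probes 15 had a mean of the same sign in old arteries, as did 15 of the 15 lowest. All 3 old arrays had that sign for 11 of the 15 highest and 12 of the 15 lowest. The matching shares over all probes were not computed, so these counts are a description. The platelet median was 1.07 in old arteries and the erythroid median 0.42.

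Some lists differed more in value. The cytokine median was 0.61 in old arteries against 0.21 in young, and Cxcl10 measured 1.25, 1.55 and 1.58 in old arteries, above all 3 young arrays. Jun measured 0.66, 1.77 and 1.79 in old arteries, a difference of -1.26. Zfp36, which destabilises cytokine messenger RNA, measured 1.35, 1.01 and 1.77 in old arteries and -0.21, 0.58 and -0.08 in young ones. The groups did not overlap for Zfp36, and the difference was -1.28. All 3 young arrays lay below all 3 old arrays for 2.18% of all genes. The smooth muscle median was -0.56 in old arteries, with array medians of 0.17, -0.69 and -1.27, so that the old arrays spanned more than the gap between ages. At an unadjusted p under 0.05, 1 smooth muscle gene was higher in young (Actg2, difference 1.02) and 3 cytokines were lower, against 1.32% and 0.962% of all genes.

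By the rule for differences, the 8 probes most in favour of young were Ccpg1, Bcan, Flacc1, Myh7, Fgfbp1, Zbtb33, Amdhd1 and Cabyr, and the 8 most against Scd, Scn7a, Gria3, Tmem106a, Gnas, Vcan, Ly49s7 and Zfp36. Of the first 8, 7 carried values on all 3 young arrays that were identical to those of other probes, against 50.6% of all probes. Of the second 8, 6 carried none, against 27.2%. Bcan, a brain proteoglycan, was one of the 7, and its probe measured 0.56, 0.93 and 1.88 in young and -0.80, -0.94 and -1.10 in old arteries. The 2 other probes of Bcan had young means of 0.13 and -0.001 and age differences of 0.26 and -0.02. Scd, the stearoyl-CoA desaturase of fat synthesis, measured -1.37, 0.46 and -0.65 in young and 0.77, 1.43 and 2.53 in old arteries (difference -2.10, adjusted p = 1.00). Scn7a, a sodium-sensing channel, measured -0.82, -1.20 and -1.37 in young and -0.05, 0.14 and 1.00 in old arteries (difference -1.49). Vcan measured -0.34, -0.61 and -1.58 on this probe in young and 0.81, 0.76 and -0.19 in old arteries. For all 3 the young arrays lay below the old ones, as they did for 2.52% of all probes, and none passed an adjusted p under 0.05. These probes were chosen for the size of the difference, so the lack of overlap adds nothing to it. Signs were opposite on all arrays of the 2 ages for 1.33% of all probes and 1.39% of all genes.

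**Figure D5:**
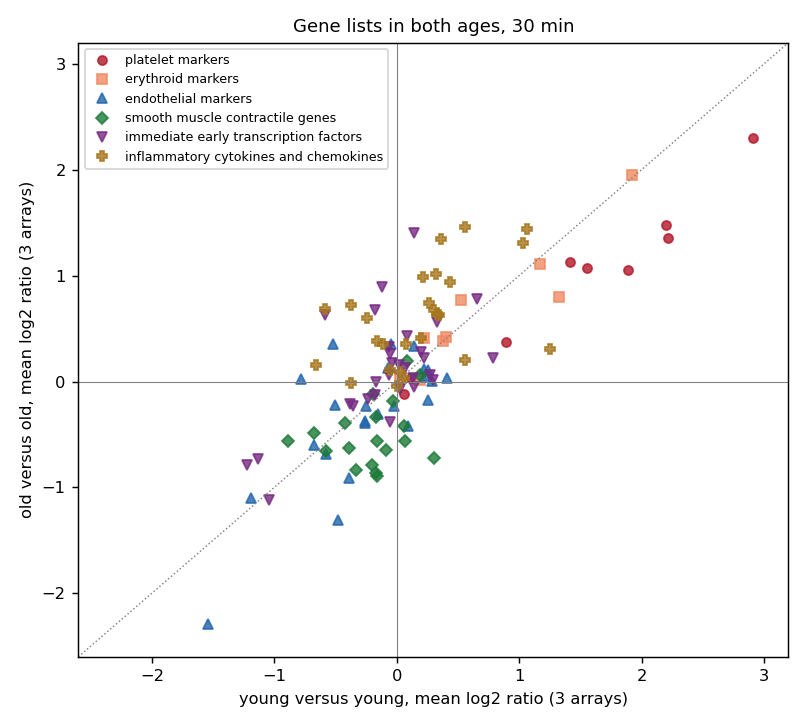
Mean log2 ratio of young versus young arteries (horizontal axis) against that of old versus old arteries (vertical axis) for the genes of 6 lists, each point the mean of 3 arrays. Platelet genes lie on or below the dotted line of equality at the upper right, Gja5 lies at the lower left, and most cytokine genes lie above the line.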

How the data were processed

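RNA from pairs of arteries was hybridised to 2-colour arrays. Per the methods, the authors scanned them with GenePix software, normalised each array by Lowess and processed values further in GeneSpring; the deposited values are log2 ratios with array medians near 0, and no spot intensities were used here. Whether the 2 channels were divided as channel 1 over channel 2 is not given in the sources used here, and array number limits the precision.

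Each probe's mean log2 ratio over the 3 arrays was tested against 0 with limma 3.58.1 (lmFit, eBayes) in R 4.3.3, adjusting over 41010 probes, of which 21394 had a gene symbol from the platform annotation (1 symbol updated, none with several), and 1 row without a probe name was left out. Gene values are means over probes of a symbol (16421 genes). The age difference was fitted on 6 arrays. The fits were tested on simulated data. Named genes were the study's own, the 15 highest and lowest probes at an unadjusted p under 0.01, at least 2-fold and of one sign on all arrays, up to 4 or 8 members per list (34 lists) by p, and the 8 largest age differences each way. Members and lists were chosen with earlier results of these data known. The alternatives were a turned sign for replicate 2, each array left out, other fits over all 20 arrays, other scalings, t-tests and filters on probes. Promoters are RefSeq's (GRCr8).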

Additional observations from a re-analysis of the deposited data

Results flagged for a closer look

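Every young array lay on one side of 0 and every old array on the other for 6 of the 66 named probes and 5 of the 144 named gene means, against 1.33% of all probes and 1.39% of all genes. Many of these were named for a small p or a large age difference, so the counts cannot be read against those shares. The 11 values belong to 10 genes, since Myh7 has 1 probe and is counted as probe and as gene mean. None of these age differences passed an adjusted p under 0.05 (all adjusted p = 1.00, limma). At the probe level the differences, young minus old, were -0.44 for Cadps2, 2.07 for Bcan, 1.89 for Flacc1, 1.85 for Myh7, 1.76 for Zbtb33 and 1.73 for Amdhd1. For gene means they were 1.16 for Rps14, 1.60 for Orai1, 0.85 for Ndufa11, 1.85 for Myh7 and 1.02 for Actg2. The Bcan probe carried values shared with other probes on all 3 young arrays, its replicate 1 value (0.56) being that of Flacc1 too, and the 2 other Bcan probes differed by 0.26 and -0.02. Groups of 3 arrays were too small for a test of single arrays far from the rest.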

How the results depend on the processing

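The count of probes at an adjusted p under 0.05 was 0 to 2 with one array left out (2 without replicate 3), and 1 over all 20 arrays with or without a dye coefficient. Among genes it was 0 to 27 with one array left out (27 without replicate 1, among them Clec1b, Pf4, Ppbp, Gp1bb, Gp5, Treml1 and Gja5), 6 with arrays brought to the same spread and 12 without genes holding shared values; Clec1b, Pf4, Ppbp and Gp1bb were called in all 3 of these settings. Probes at an unadjusted p under 0.05 numbered 1950 to 4690 with an array left out, 3446 with replicate 2 turned and 1751 by the t-test. There were 1562 among probes with a symbol and 1322 without shared values. Genes numbered 780 to 1786 with an array left out, 1387 turned, 736 by the t-test and 354 without shared values. At the thresholds of the study's methods, positive probes numbered 181 to 363 with one array left out, 94 with replicate 2 turned, 29 by the t-test and 64 without shared values, and negative probes 152 to 646, 117, 73 and, with a symbol, 87. Positive genes numbered 84 to 142, 32 turned, 20 by the t-test and 40 without shared values, and negative genes 41 to 98, 18 and 19.

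Turning the sign reversed F2rl2 (-0.012), the gene means of F5 (-0.11), RT1-Da (-0.10), Gja4 (0.054), Ccl5 (-0.20), Rsad2 (-0.013), Orai1 (-0.17), Nkg7 (-0.27), S100a8 (-0.026), Ckm (0.24) and Myh1 (0.28), and the age differences of Ccpg1 (-0.71), Flacc1 (-0.20), Myh7 (-0.41), Cabyr (-0.34), Ly49s7 (0.31) and Zfp36 (0.42).

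Age differences at an unadjusted p under 0.05 numbered 662 to 2578 with one array left out, 423 and 445 over all 20 arrays with and without a dye coefficient, 495 with a symbol and 148 without shared values. Probes at the study's thresholds higher in young numbered 172 to 507 with one array left out, 82 with arrays turned, 70 by the t-test, 97 with a symbol and 3 without shared values, and lower in young 99 to 688, 72, 34, 60 and 35, with 63 and 74 over all 20 arrays. Deviations of same-numbered arrays correlated at -0.06, -0.46 and 0.03. Same-numbered young and old arrays had opposite dye layouts, so these values cannot show whether array numbers pair the samples. With the replicate block 820 probes passed an unadjusted p under 0.05 and 0 an adjusted one. The cause of these changes was not tested.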
